A study of Mus musculus with 57 samples.

Results

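Cytosolic ribosomes are built from ribosomal RNA and the proteins of a large and a small subunit, which in the mouse are encoded by the Rpl and Rps genes. The members described here are the 83 genes whose symbol is Rpl or Rps with a number and an optional a, x or l, or one of Rplp0, Rplp1, Rplp2 and Rpsa, and that were listed in both count tables (25416 genes in the acute and 54658 in the chronic table). They comprise 51 large subunit and 32 small subunit genes. Of the 83 members, 81 had enough counts to be tested in the acute study and 79 in the chronic study. Rpl10l had no count in any heart of either study and Rpl39l was too low for the test in both, whereas Rpl24 and Rpl32l were too low in the chronic study only. By construction the rule leaves out near relatives with other symbols, such as Rpl22l1, Rpl7l1 and Rps3a1, which are described with the paralogs.

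The study asked whether nicotinamide mononucleotide (NMN), a precursor of NAD+, modifies the effect of the anthracycline doxorubicin (Doxo) on the heart of male wild-type C57BL/6 mice. In the acute study, mice of 9 weeks at purchase received 1 intraperitoneal dose of 20 mg/kg Doxo, with NMN (180 mg/kg daily, intraperitoneal, started 5 days earlier) or with saline, and control (Ctrl) mice received vehicle. Hearts were collected at day 5 (Ctrl n = 14, Doxo n = 13, Doxo-NMN n = 13). In the chronic study, mice of 14 to 16 weeks received 5 injections of 4 mg/kg Doxo, a cumulative dose of 20 mg/kg. They had 500 mg/kg daily NMN in the drinking water, started 5 days before the first injection, or water alone. Ctrl mice received PBS injections and water. Hearts were collected 60 days after the first injection (Ctrl n = 5, Doxo n = 6, Doxo-NMN n = 6). No group received NMN alone, and only mice alive at collection contributed a heart. The libraries are bulk poly(A) RNA of heart tissue, so fewer cells of a type and less RNA per cell cannot be told apart.

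The acute libraries held 32409622 to 52102850 counts and the chronic libraries 17769886 to 23862287. Cardiomyocyte genes dominated all hearts, with a summed level of 7 defining markers between 30440 and 85326 CPM, that is counts relative to the library size after TMM normalisation. Markers of atrial tissue separated the acute hearts. Myl4, an atrial myosin light chain, was at 100 CPM or more in 8 of 14 Ctrl, 5 of 13 Doxo and 4 of 13 Doxo-NMN hearts. The library labelled acute Doxo replicate 6 lay among the Ctrl hearts for most values below, and its part is given beside them. Among the acute data 73.6% of small counts were even numbers in the median heart, against 40.3% in the chronic table.

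Ribosomal protein genes are transcribed by RNA polymerase II and are among the most abundant mRNAs of most cells. Because each ribosome holds 1 copy of nearly every protein, their transcripts are usually kept in step. Many of these mRNAs start with a C followed by an uninterrupted stretch of pyrimidines, the 5′ terminal oligopyrimidine (TOP) tract, through which mTOR signalling and the RNA-binding protein LARP1 control their translation and stability. A few proteins have tissue-restricted paralogs. Rpl3l replaces Rpl3 in the ribosomes of heart and skeletal muscle and falls when muscle grows or regenerates. Rps27l is a paralog of Rps27 and a known target of p53.

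The starts of 7 genes to which the results below return are shown first, so that the longest pyrimidine run near the start can be compared between a pair of paralogs and among members that moved alike. Each is 70 bases of the GRCm38.p6 build, from 40 bases before to 30 bases after the transcription start annotated by RefSeq, read 5′ to 3′ on the transcribed strand. Capitals mark the longest run of C or T that touches the window from 10 bases before to 15 bases after the start. Rps27 lies at chr3:90213619-90213688 (- strand), Rps27l at chr9:66946046-66946115 (+), Rpl3l at chr17:24727786-24727855 (+), Rpl12 at chr2:32961672-32961741 (+), Rpl4 at chr9:64173347-64173416 (+), Rps6 at chr4:86857338-86857407 (-) and Rpl22l1 at chr3:28805468-28805537 (+).
Rps27: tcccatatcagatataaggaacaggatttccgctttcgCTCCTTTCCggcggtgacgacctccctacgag
Rps27l: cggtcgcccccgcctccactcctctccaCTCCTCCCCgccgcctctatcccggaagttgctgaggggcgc
Rpl3l: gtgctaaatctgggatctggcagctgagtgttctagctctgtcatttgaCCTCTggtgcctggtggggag
Rpl12: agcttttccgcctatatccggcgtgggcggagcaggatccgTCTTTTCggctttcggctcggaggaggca
Rpl4: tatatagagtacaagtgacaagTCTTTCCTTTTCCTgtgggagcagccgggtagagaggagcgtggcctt
Rps6: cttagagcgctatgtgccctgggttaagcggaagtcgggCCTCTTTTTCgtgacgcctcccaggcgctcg
Rpl22l1: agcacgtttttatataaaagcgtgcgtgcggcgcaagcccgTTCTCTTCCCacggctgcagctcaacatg

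The run is 9 bases in Rps27 and at the printed start of Rps27l, 14 in Rpl4, 10 in Rps6 and in Rpl22l1 and 7 in Rpl12, whereas in Rpl3l the longest is 5. A short run is not particular to Rpl3l. It is 2 bases in Rpl24 and 3 in Rpl41, which are not printed and which rose with acute Doxo. RefSeq holds another start for Rps27l and for Rpl3l, and at each of these the longest run is 4 bases. Counted from the annotated start, where the first transcribed base is 1 and the base before it is -1, the run begins at -2 in Rps27 and -1 in Rps6 and so spans the start, and it begins at 2 in Rpl12 and Rpl22l1. In Rps27l it lies from -12 to -4 and in Rpl4 from -18 to -5, before the annotated start, so that at these starts it is not part of the transcript and no 5′ terminal tract. A RefSeq start was matched for 61 of the 83 members. A run of at least 7 pyrimidines touching that window, before or after the start, was present at 1 or more starts of 36 of the 61 (59.0%), against 25.3% of all 27025 genes with such a sequence. Searched on both strands of the 300 bases around the start, CCGGAAG was found for 25 of the 61 members (41%; 9.93% of all genes), CTTTCC for 32 (52.5%; 29.3%), CACGTG for 6 (9.84%; 8.09%) and TATAAA for 7 (11.5%; 15.7%). CTTTCC can itself lie within a pyrimidine run. In the acute study the median log2 fold change in Doxo vs. Ctrl was 0.42 for the 35 tested members with a run and 0.44 for the 24 without, 2 values that lie close to each other.

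Per kilobase of median annotated transcript length, the level in Ctrl hearts of the 78 members with a length and a test was 202 CPM at the median in the acute study, with quartiles of 139 and 279. Rplp0, a protein of the ribosomal stalk, was the highest at 585 CPM per kilobase. In CPM without the length, Rps2 stood highest among all acute hearts with 570 CPM in Ctrl. At the lower end, Rpl24 was at 0.38 CPM, Rps10 at 1.24 and Rpl32l at 1.06. Rpl32l, Rpl6l and Rps4l are annotated as processed pseudogenes. Near-identical processed copies exist for most members, and how reads that map to several places were counted is not given in the sources used here, so that the level of a single member, above all of Rpl24, Rps10, Rpl13a and the 3 pseudogenes, is uncertain.

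In the acute study, Doxo raised nearly the whole family by a similar amount. Of the 81 tested members, 74 were higher in Doxo than in Ctrl hearts at an adjusted p-value under 0.05 (edgeR quasi-likelihood test, Benjamini-Hochberg over all genes), against a background of 34.8% of the 14240 genes tested. Only 2 members were lower, Rpl3l and Rps10, against a background of 33.3%, and Rps10, at 1.24 CPM in Ctrl, lost its call in 16 of 40 fits that left out 1 heart. The large subunit gave 45 of 49 higher and the small subunit 29 of 32. The median log2 fold change was 0.43 in the large and 0.45 in the small subunit, which for the whole family is a 1.35-fold rise, whereas the median of all genes was -0.00.

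The rise was of moderate size and narrow spread. With a fold change of at least 1.5 asked for in addition, 12 members remained higher (background 14.7%) and 0 lower (15.4%), so the share of members past this limit was near the background. Among them were Rpl3, Rpl10a, Rpl12, Rpl24, Rpl32l, Rpl37, Rps9, Rps13, Rps20, Rps25 and Rps27. The middle 50% of the members lay between log2 fold changes of 0.36 and 0.52, a width of 0.17, against 0.75 for all genes tested. Within 0.2 of their own median lay 64 of the 81 members and 29.2% of all genes. The 5 members that were not called were Rps2 (0.13, adjusted p = 0.103), Rpl15 (0.09, 0.161), Rpl23a (0.11, 0.0602), Rpl13a (-0.20, 0.0897) and the pseudogene Rps4l (0.19, 0.0653).

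**Figure D1:**
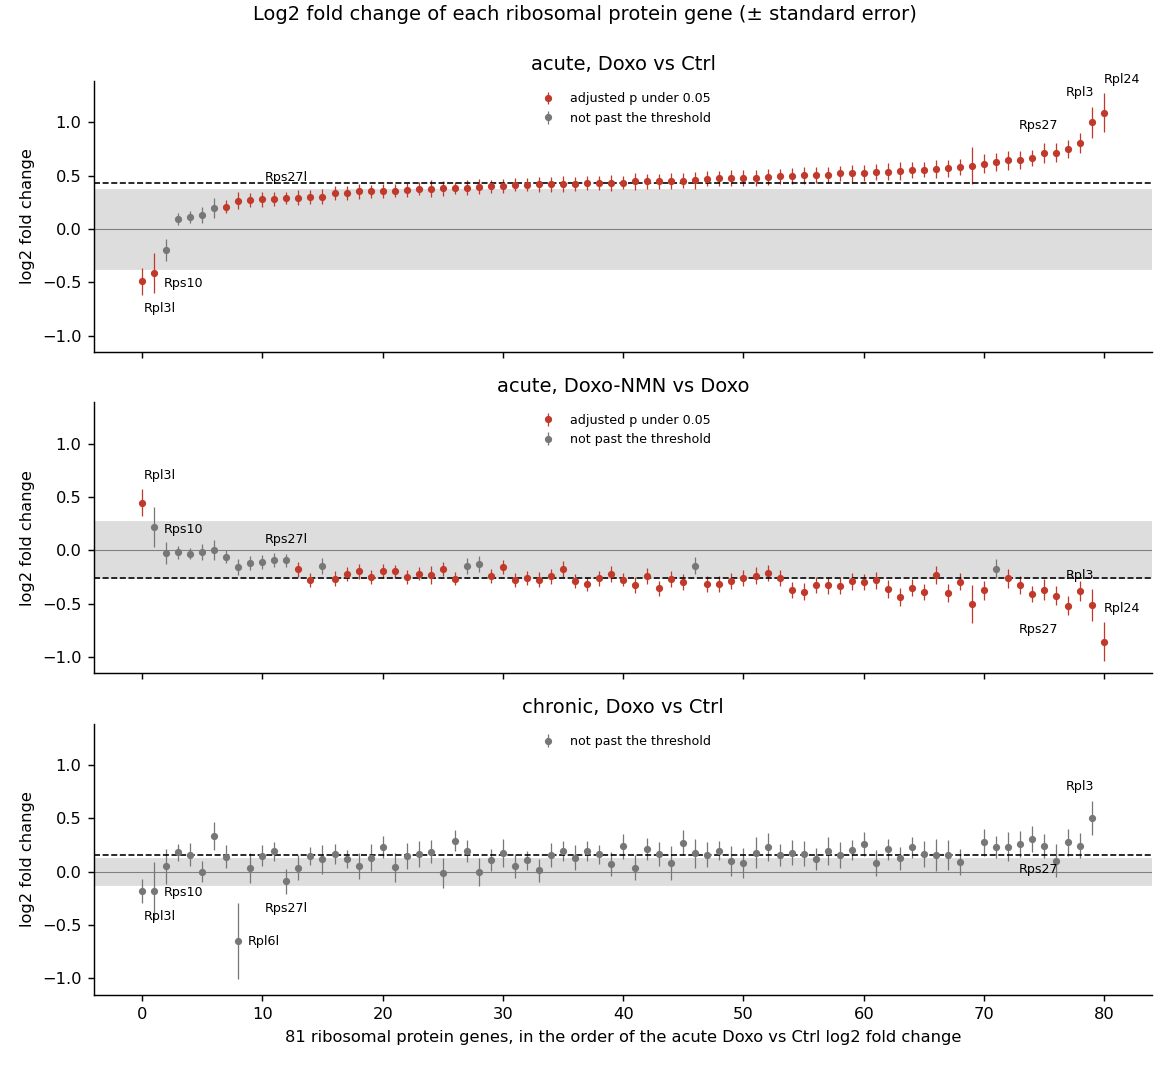
Log2 fold change (± SE) of each tested member in acute Doxo vs. Ctrl, acute Doxo-NMN vs. Doxo and chronic Doxo vs. Ctrl, with the members in the same order in each panel, the family median as a dashed line, the middle 50% of all genes as a grey band and members past the test in red. In the acute panels the points crowd around 0.43 and -0.26 with Rpl3l at -0.49 and 0.45 on the other side of 0, and in the chronic panel none passed the test.

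The mean of the members per heart, as log2 of CPM + 0.5 relative to the Ctrl mean, showed the same in single hearts. It ran from -0.09 to 0.14 with a median of -0.00 in Ctrl, from -0.03 to 0.74 with a median of 0.36 in Doxo, and from -0.01 to 0.41 with a median of 0.13 in Doxo-NMN hearts. In 12 of the 13 Doxo hearts it lay above every Ctrl heart, and the lowest of these 12 was at 0.16. The library labelled Doxo replicate 6 was the exception at -0.03. The Doxo-NMN hearts lay between and overlapped both groups.

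Relative to its own Ctrl mean, each member was also placed around the mean of a heart. The SD of the 81 members was 0.08 on average in Ctrl, 0.23 in Doxo and 0.15 in Doxo-NMN hearts. Because each member was centred on the Ctrl hearts, their SD is low by construction. That of the treated hearts also holds the differences in fold change between members. Members took 1.18% to 1.40% of all counts in Ctrl (median 1.29%), 1.22% to 2.02% in Doxo (median 1.60%) and 1.23% to 1.85% in Doxo-NMN hearts (median 1.43%). Genes of mitochondrial DNA, the largest single block of counts, took a median of 22.8%, 21% and 19.9% in the same groups. Of the counts outside these genes, members took a median of 1.67% in Ctrl, 2.01% in Doxo and 1.80% in Doxo-NMN hearts. The part of the mitochondrial difference in the share was not tested.

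**Figure D2:**
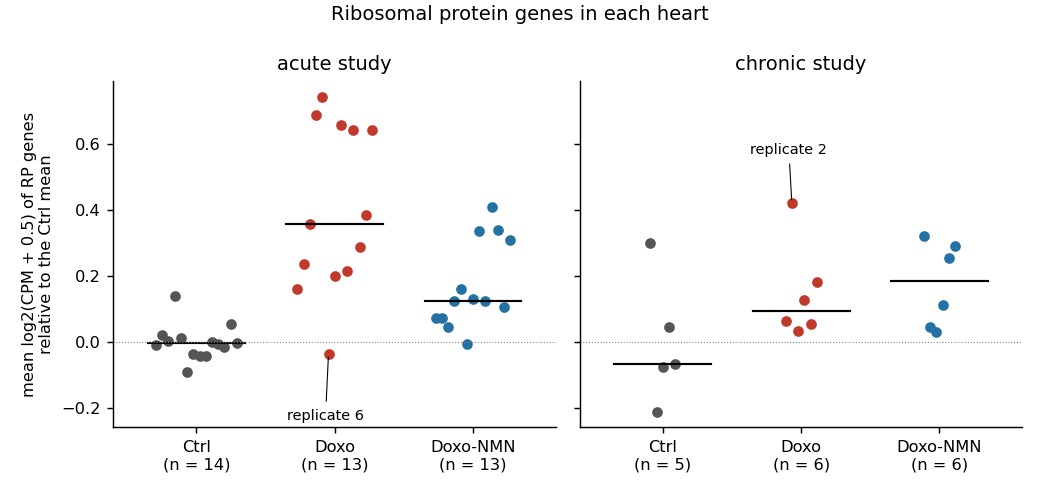
Mean log2 level of the tested members in each heart relative to the Ctrl mean of the same study, 1 point per heart with a line at the group median. In the acute study 12 of 13 Doxo hearts lie above all 14 Ctrl hearts and the Doxo-NMN hearts lie between, whereas the groups of the chronic study overlap.

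No member had Doxo and Ctrl groups without overlap over all acute hearts (background 0.435% of genes higher and 0.471% lower). Without Doxo replicate 6, 37 of the 81 members were higher in each of the other 12 Doxo hearts than in every Ctrl heart, against 7.72% of all genes, and 0 were lower, against 6.5%. This setting was chosen after the values were seen.

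In the acute Doxo-NMN hearts the family stood closer to Ctrl. Compared with Doxo, 63 of 81 members were lower (39 large and 24 small subunit, background 27.4%) and 1 member, Rpl3l, was higher (background 25.7%). The median log2 fold change was -0.26, a 1.2-fold lower level, with 69 members within 0.2 of it. At least a 1.5-fold change was found for 1 lower member, Rpl24 (background 8.88%), and for 0 higher members (background 8.17%). Compared with Ctrl, 34 members were still higher (21 large and 13 small subunit, background 15%) and 0 lower (11.1%), with a median of 0.17, and 59 were past an unadjusted p of 0.05 (background 37.8%). None reached 1.5-fold higher or lower (background 3.31% and 3.79%). Within the hearts of low and of high Myl4, fitted separately, 5 members each were higher than in Ctrl, and 60 were when only these 2 groups were fitted. The share of all genes called in these fits is not given, so these counts cannot be set beside a background. The 3 acute comparisons share their hearts in pairs, so that a high value in the Doxo hearts enters the first 2 with opposite signs.

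Among the named members, the proteins of the stalk, which binds elongation factors, rose moderately. Rplp0 was at 466 to 551 CPM (median 495) in Ctrl, 514 to 875 (median 633) in Doxo and 482 to 705 (median 556) in Doxo-NMN hearts. Of the Doxo hearts 11 of 13 were above every Ctrl heart, and of the Doxo-NMN hearts 8 of 13. The log2 fold change was 0.45 (SE 0.072, adjusted p = 1.24e-06) in Doxo vs. Ctrl and -0.24 (adjusted p = 0.00599) in Doxo-NMN vs. Doxo. Its partners Rplp1 and Rplp2 changed by 0.40 and 0.29 with Doxo and by -0.16 and -0.18 between Doxo-NMN and Doxo, all past the test. Rpsa, which is also known as a laminin receptor, rose by 0.21 (adjusted p = 0.00271), and its value in Doxo-NMN vs. Doxo was -0.06 (adjusted p = 0.438).

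Rpl5 and Rpl11, which with 5S RNA form the particle that binds and inhibits Mdm2 when ribosome assembly is disturbed, rose by 0.54 (SE 0.08, adjusted p = 2.69e-07) and 0.42 (SE 0.069, adjusted p = 1.83e-06). In Doxo-NMN vs. Doxo they were lower by log2 values of -0.36 and -0.27, both past the test. Rps6, the substrate of S6 kinase, went from 166 to 197 CPM (median 179) in Ctrl to 174 to 321 (median 244) in Doxo and 173 to 257 (median 195) in Doxo-NMN hearts. In 11 of 13 Doxo and 5 of 13 Doxo-NMN hearts Rps6 was above every Ctrl heart. It rose by 0.48 with Doxo, and the value for Doxo-NMN vs. Doxo was -0.32 (adjusted p = 3.29e-07 and 0.000459). Rps27a, made as a fusion with ubiquitin, changed by 0.54 and -0.44, and Rps19, mutated in a form of Diamond-Blackfan anaemia, by 0.58 and -0.29. Rpl41, the smallest ribosomal protein, rose by 0.40, and its -0.13 in Doxo-NMN vs. Doxo did not pass the test (adjusted p = 0.14).

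Among the members with the largest called changes, Rpl12, a protein near the base of the stalk, was at 106 to 138 CPM (median 121) in Ctrl, 119 to 293 (median 201) in Doxo and 128 to 215 (median 159) in Doxo-NMN hearts. All Doxo hearts but replicate 6 and 12 of the 13 Doxo-NMN hearts were above every Ctrl heart. Its log2 fold change was 0.81 (SE 0.094, adjusted p = 3.61e-09), -0.38 (adjusted p = 0.0011) and, for Doxo-NMN vs. Ctrl, 0.42 (adjusted p = 0.000973). Rps13 and Rps20 kept 0.46 and 0.38 over Ctrl in the Doxo-NMN hearts, both past the test. The largest log2 fold change, 1.09 (SE 0.18, adjusted p = 2.12e-06) for Rpl24, rested on 0.38 CPM in Ctrl, 0.82 in Doxo and 0.45 in Doxo-NMN hearts. Rps24 and Rps7, each at 0.43, were the members nearest to the family median.

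Rpl3 and Rpl3l, both of the large subunit, moved in opposite directions. Rpl3 (ENSMUSG00000060036, chr15:80077791-80091868, - strand, protein coding) was at 97.1 to 172 CPM (median 144) in Ctrl, 113 to 402 (median 262) in Doxo and 120 to 271 (median 198) in Doxo-NMN hearts. Apart from Doxo replicate 6 at 113 CPM, every Doxo heart was at 201 CPM or more and above every Ctrl heart. The log2 fold change was 1 (SE 0.15, adjusted p = 1.94e-07) in Doxo vs. Ctrl, -0.51 (adjusted p = 0.00379) in Doxo-NMN vs. Doxo and 0.49 (adjusted p = 0.0106) in Doxo-NMN vs. Ctrl.

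Rpl3l (ENSMUSG00000002500, chr17:24727820-24736143, + strand, protein coding) was at 179 to 280 CPM (median 228) in Ctrl, 96.6 to 269 (median 149) in Doxo and 124 to 298 (median 230) in Doxo-NMN hearts. Of the 12 Doxo hearts other than replicate 6, 9 were below every Ctrl heart, and replicate 6 itself was at 269 CPM. The log2 fold change was -0.49 (SE 0.13, adjusted p = 0.000863) in Doxo vs. Ctrl, 0.45 (SE 0.13, adjusted p = 0.00366) in Doxo-NMN vs. Doxo and -0.04 (adjusted p = 0.835) in Doxo-NMN vs. Ctrl.

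The sum of the pair changed less than its make-up. Rpl3l gave 63.2% ± 8.1 (SD, n = 14) of the counts of the pair in Ctrl hearts, 38.8% ± 12.3 (n = 13) after Doxo and 54.4% ± 12.5 (n = 13) after Doxo with NMN, while the summed level was 363 ± 16.5, 430 ± 62.1 and 410 ± 39.4 CPM. The share was between 25.6% and 48.1% in 12 Doxo hearts, all below the lowest Ctrl heart at 51%, and 70.4% in replicate 6. The log2 ratio of Rpl3l to Rpl3 differed by -1.49 between Doxo and Ctrl (two-sided permutation test with 100000 resamples, p = 2e-05, the smallest they can give, adjusted p = 0.00022 over the 33 ratio tests). It differed by 0.95 between Doxo-NMN and Doxo (adjusted p = 0.0197) and by -0.54 between Doxo-NMN and Ctrl (adjusted p = 0.0896).

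**Figure D3:**
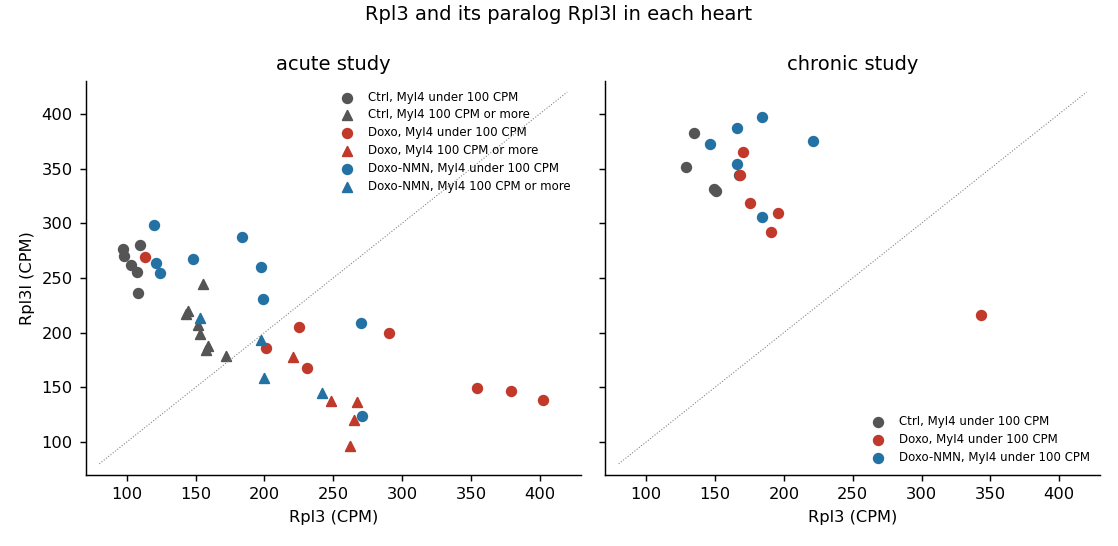
Level of Rpl3l against Rpl3 in CPM, 1 point per heart, in the acute and the chronic study. Acute Doxo hearts sit at high Rpl3 (201 to 402 CPM) and low Rpl3l (96.6 to 205 CPM) except replicate 6 at 113 and 269 CPM, and in the chronic study the Doxo heart at 343 CPM of Rpl3 stands apart.

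The atrial content of the hearts moved with this pair too. Among Ctrl hearts, those with Myl4 below 100 CPM had Rpl3 at 104 ± 5.35 and Rpl3l at 263 ± 16.1 CPM (n = 6), and those with more had 155 ± 9.03 and 205 ± 21.9 (n = 8). Within the hearts of low Myl4 the log2 fold change in Doxo vs. Ctrl was 1.38 for Rpl3 and -0.54 for Rpl3l (adjusted p = 0.000159 and 0.0056). Within those of high Myl4 it was 0.72 and -0.60 (adjusted p = 1.57e-06 and 0.000366). For Doxo-NMN vs. Doxo the values were -0.59 and 0.42 with low Myl4 (adjusted p = 0.0265 and 0.0217) and -0.36 and 0.39 with high Myl4 (adjusted p = 0.0087 and 0.033), so both directions were present in each set of hearts.

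Rps27 and Rps27l rose by different amounts. Rps27 (ENSMUSG00000090733, chr3:90212522-90213651, - strand) was at 126 to 157 CPM (median 142) in Ctrl, 129 to 301 (median 253) in Doxo and 133 to 227 (median 170) in Doxo-NMN hearts. All Doxo hearts but replicate 6 and 9 of the 13 Doxo-NMN hearts were above every Ctrl heart. The log2 fold change was 0.75 (SE 0.087, adjusted p = 2.8e-09) in Doxo vs. Ctrl and -0.52 (adjusted p = 1.25e-05) in Doxo-NMN vs. Doxo. The 0.23 in Doxo-NMN vs. Ctrl had an adjusted p of 0.0447 and missed the threshold with RLE factors, library totals, TMM without the members and mitochondrial genes, no low-count filter, DESeq2 and within either set of Myl4 level.

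Rps27l (ENSMUSG00000036781, chr9:66946086-66949516, + strand) was at 30.7 to 37.9 CPM (median 33.6) in Ctrl, 32.8 to 53.9 (median 39.1) in Doxo and 34.6 to 45.3 (median 39.1) in Doxo-NMN hearts. Only 8 of 13 Doxo and 9 of 13 Doxo-NMN hearts were above every Ctrl heart. The log2 fold change was 0.29 (SE 0.059, adjusted p = 4.77e-05) in Doxo vs. Ctrl, -0.09 (adjusted p = 0.2) in Doxo-NMN vs. Doxo and 0.20 (adjusted p = 0.0115) in Doxo-NMN vs. Ctrl. The log2 ratio of Rps27l to Rps27 differed by -0.44 between Doxo and Ctrl (-2.51 ± 0.25 against -2.07 ± 0.12, adjusted p = 0.00033 by the permutation test) and by 0.42 between Doxo-NMN and Doxo (adjusted p = 0.00198).

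The other pairs included genes outside the naming rule. Rpl22l1, the paralog that Rpl22 is known to repress, went from 8.46 to 13.9 CPM in Ctrl to 10.4 to 30.5 in Doxo and 10.4 to 20.1 in Doxo-NMN hearts, a log2 fold change of 0.96 (SE 0.12, adjusted p = 8.1e-09) and then -0.50 (adjusted p = 0.000586). Rpl22 itself rose by 0.30 and then fell by 0.28 on the log2 scale. The ratio of Rpl22l1 to Rpl22 was higher than in Ctrl by 0.64 in Doxo (adjusted p = 0.00022) and by 0.43 in Doxo-NMN hearts (adjusted p = 0.00198), and the difference of -0.22 between Doxo-NMN and Doxo did not pass the test (adjusted p = 0.11).

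Rpl7l1, a relative of Rpl7 with a role in ribosome assembly, fell by 0.19 with Doxo (adjusted p = 0.00497) while Rpl7 rose by 0.45 (adjusted p = 8.17e-07). Their ratio differed by -0.62 in Doxo vs. Ctrl, 0.43 in Doxo-NMN vs. Doxo and -0.19 in Doxo-NMN vs. Ctrl (adjusted p = 0.00022, 0.0128 and 0.0353). The ratio of Rpl36al, at 0.16 to 0.35 CPM in the group means, to Rpl36a and that of the pseudogene Rps4l to Rps4x passed no adjusted test. Of 8 pairs, 6 had the mean of 10 counts per heart needed for a ratio, and Rpl10l and Rpl39l did not.

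**Figure D4:**
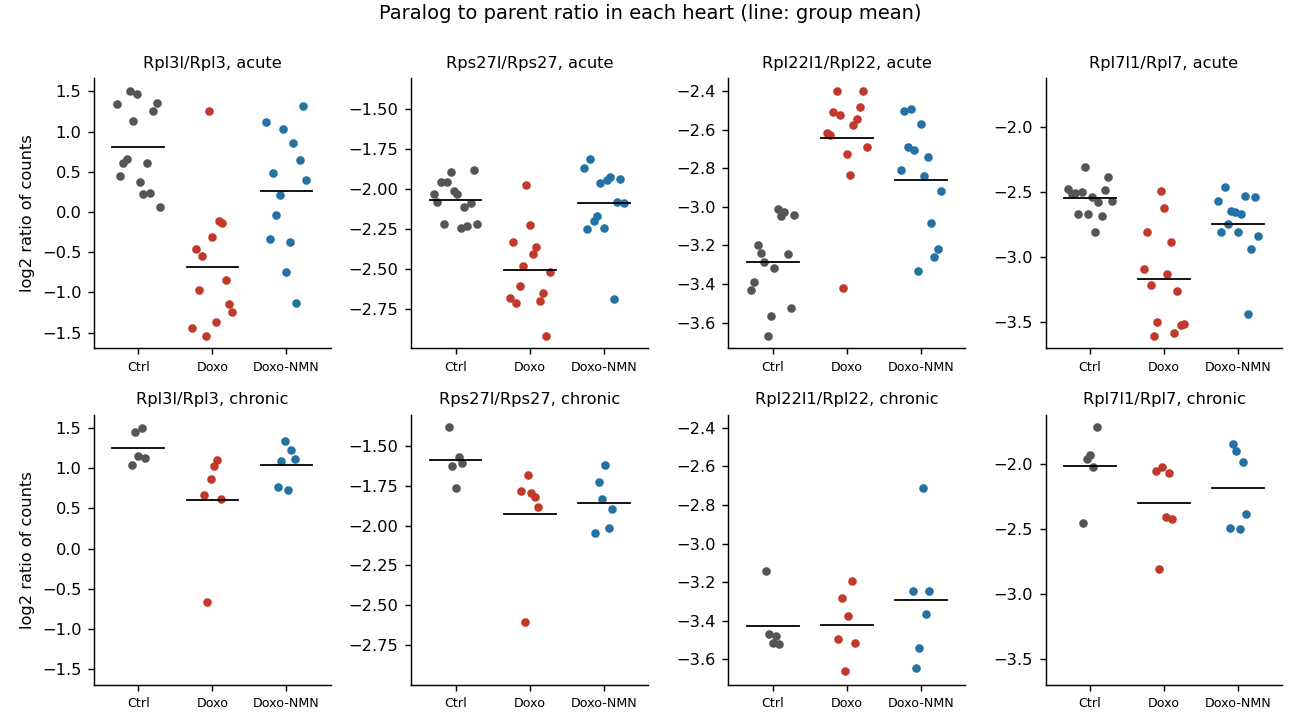
Log2 ratio of each paralog to its partner per heart, by group and study, with a line at the group mean. Rpl3l/Rpl3, Rps27l/Rps27 and Rpl7l1/Rpl7 are lower and Rpl22l1/Rpl22 is higher in acute Doxo than in acute Ctrl hearts.

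In the chronic study no member passed the test in any comparison, with edgeR or with DESeq2. On simulated chronic counts edgeR recovered 7 of 49 genes planted at a log2 fold change of 0.4 and 6 of 50 at -0.4. On simulated acute counts it recovered 24 of 49 and 25 of 49. A lack of calls in the chronic study therefore does not show that the members were unchanged. In Doxo vs. Ctrl 0 of 79 members were higher (background 0.0535%) or lower (background 0.00668%), in Doxo-NMN vs. Doxo 0 (0.0% in each direction), and in Doxo-NMN vs. Ctrl 0 (0.0401% higher and 0.0% lower). At an unadjusted p under 0.05 the counts were 19, 2 and 14 members, against backgrounds of 7.85%, 2.95% and 4.73% of the 14960 genes. The median log2 fold changes were 0.16, 0.02 and 0.18, with 73, 53 and 76 of the 79 members above 0 (backgrounds of 49.9%, 50.8% and 51.6%). The first was 0.095 without Doxo replicate 2 and 0.24 without Ctrl replicate 1, and the second ran from -0.015 without Doxo-NMN replicate 1 to 0.088 without Doxo replicate 2. The 2 comparisons with Ctrl share the same 5 Ctrl hearts.

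The per-heart mean of the family was at -0.21, -0.07, -0.06, 0.05 and 0.30 in the Ctrl hearts, 0.04 to 0.42 (median 0.10) in Doxo and 0.03 to 0.32 (median 0.18) in Doxo-NMN hearts. Ctrl replicate 1 was as high as the highest Doxo-NMN hearts, and the groups overlapped. In Doxo vs. Ctrl 5 members had groups that did not overlap, all higher (background 0.602% higher and 0.321% lower), namely Rpl3, Rpl4, Rpl7a, Rpl15 and Rps4x, and in Doxo-NMN vs. Ctrl 2 did, Rpl4 and Rpl15 (background 0.421% higher and 0.354% lower).

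Rpl3 was at 167, 129, 150, 135 and 150 CPM in the chronic Ctrl hearts, 168 to 343 (median 183) in Doxo and 147 to 221 (median 175) in Doxo-NMN hearts. The lowest Doxo heart stood just above the highest Ctrl heart. The log2 fold change was 0.50 (SE 0.16, adjusted p = 0.498 by edgeR). Rpl3l was at 330 to 382 CPM in Ctrl, 216 to 365 in Doxo and 306 to 397 in Doxo-NMN hearts, and its Doxo effect was -0.18 on the log2 scale (adjusted p = 0.708). Rpl3l gave 70.4% ± 3.0 (SD, n = 5), 60% ± 10.9 (n = 6) and 67.3% ± 3.8 (n = 6) of the counts of the pair.

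The chronic log2 ratio of Rpl3l to Rpl3 differed by -0.65 between Doxo and Ctrl (two-sided exact permutation test, p = 0.0173, adjusted p = 0.0519). Doxo replicate 2, with Rpl3 at 343 CPM, stood apart, and without it the difference was -0.40 (exact p = 0.0159). The ratio of Rps27l to Rps27 differed by -0.34 (exact permutation test, adjusted p = 0.0429), by -0.20 without Doxo replicate 2 and by -0.29 without Ctrl replicate 1 (unadjusted exact p = 0.0667). Rps27l was at 24.2 to 43 CPM in Ctrl and 24.6 to 32.7 in Doxo hearts, and Rps27 at 74.7 to 112 and 96.3 to 150. No other chronic ratio passed the adjusted test.

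The Doxo effect was compared between the studies in 1 fit of the Doxo and Ctrl hearts of both. It was larger in the acute study for 9 of 81 members (background 11%) and smaller for 0 (background 8.33%), with a median difference in log2 fold change of 0.30, and 41 members were past an unadjusted p of 0.05 (background 35.8%). The share of members called was near the background. Their count ran from 1 to 38 members when single hearts were left out, where the share of all genes is not given. The 2 studies also differ in age, dose schedule, time of collection and sequencing site, and these cannot be told apart.

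Genes that act with the ribosome were read from fixed lists, each beside the share of all genes called. Of 11 ribosomal protein genes and relatives outside the rule or near it, Rps4l included, 7 were higher (all genes 34.8%) and 2 lower (33.3%) in acute Doxo vs. Ctrl, with a median of 0.40. Rps3a1, the mouse gene of the small subunit protein eS1, rose by 0.51, Rack1, a scaffold on the small subunit, by 0.40 and Fau, a ubiquitin-like fusion with Rps30, by 0.54. Rsl24d1, an assembly factor, fell by 0.38, and Rpl7l1 is given above. In Doxo-NMN vs. Doxo 4 of the 11 were lower (all genes 27.4%) and 1 higher (25.7%), the former a share near that of all genes.

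Of 17 other mRNAs that carry a TOP tract, 14 were higher (all genes 34.8%) and 1 lower (33.3%), with a median log2 fold change of 0.47 beside 0.43 for the members, and in Doxo-NMN vs. Doxo 14 were lower (all genes 27.4%) and 1 higher (25.7%), with a median of -0.31. Eef2, which moves the ribosome along the mRNA, was at 1347 ± 51.3 CPM in Ctrl, 2312 ± 558 in Doxo and 1859 ± 306 in Doxo-NMN hearts, and changed by 0.78 and -0.31 on the log2 scale. Eif3e, an initiation factor subunit, changed by 0.74 and -0.61. The exception was Vim, an intermediate filament of non-muscle cells, with -1.30 and 0.71.

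Ribosome assembly factors gave 46 higher (all genes 34.8%) and 3 lower (33.3%) of 66, with a median of 0.34, and between Doxo-NMN and Doxo 40 were lower (27.4%) and 3 higher (25.7%). Gnl3, a nucleolar GTPase, was at 19.3 ± 1.69 CPM in Ctrl, 40.2 ± 11.7 in Doxo and 21.7 ± 5.39 in Doxo-NMN hearts. Its log2 fold changes were 1.06 and -0.89. Rrp12 changed by 1.07 and -0.68, whereas Emg1 and Dkc1, which modify ribosomal RNA, fell by 0.33 and 0.23 on the log2 scale with Doxo.

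RNA polymerase I, which makes the large ribosomal RNA, had called shares near those of all genes. Of 15 tested genes of its subunits and factors, 5 were higher and 5 lower, 33.3% in each direction beside 34.8% and 33.3% of all genes, with a median of -0.07. Taf1d, a factor of its promoter complex, changed by 1.24 and -0.95 and the subunit Twistnb by 0.55 and -0.55, whereas the subunit Znrd1 was at -0.50 and 0.22 and the termination factor Ttf1 at -0.31 and 0.28.

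Among 12 regulators of ribosome production, 8 were higher (all genes 34.8%) and 2 lower (33.3%) in Doxo vs. Ctrl, and 4 lower (27.4%) and 2 higher (25.7%) in Doxo-NMN vs. Doxo, the latter counts near those of all genes. Myc, which activates ribosomal genes, was at 2.12 to 4.75 CPM in Ctrl, 2.84 to 57.1 in Doxo and 2.34 to 13 in Doxo-NMN hearts. On the log2 scale it changed by 2.98 (SE 0.32, adjusted p = 8.26e-10) and -2.05 (SE 0.32, adjusted p = 3.79e-06). Doxo hearts reached from within the Ctrl range to far above it. Eif4ebp1, the mTOR-regulated inhibitor of cap-dependent translation, changed by 1.68 and -1.01, and Rps6kb1, a kinase of Rps6, by 0.40 and -0.41. Mycn was at -2.21 in Doxo vs. Ctrl, Mtor at 0.19, and Larp1 at 0.00 (adjusted p = 0.976).

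Of 12 p53 targets, 6 were higher (all genes 34.8%) and 1 lower (33.3%) in Doxo vs. Ctrl. In Doxo-NMN vs. Doxo 4 were lower and 3 higher, near the 27.4% and 25.7% of all genes. Cdkn1a, the cell cycle inhibitor p21, was at 63.0 ± 10.3, 183 ± 68.9 and 77.6 ± 23.2 CPM in the 3 groups, with log2 fold changes of 1.54 and -1.24. Trp53inp1 changed by 2.51 and -1.31, and Ccng1 by -0.97 and 0.73. Mdm2 was at 0.07 (adjusted p = 0.253). The value for Rps27l stands above at 0.29. In Doxo-NMN vs. Ctrl 7 of the 12 targets were higher (all genes 15%) and 0 lower (11.1%). The median log2 fold change of the list was 0.25 in Doxo vs. Ctrl and 0.39 in Doxo-NMN vs. Ctrl.

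The genes of the mitochondrial ribosome that passed the test were mostly lower with Doxo. Of 77 tested genes of mitochondrial ribosomal proteins, which are encoded in the nucleus and serve the separate ribosomes of mitochondria, 44 were lower (all genes 33.3%) and 10 higher (34.8%) in acute Doxo vs. Ctrl, with a median of -0.24. In Doxo-NMN vs. Doxo 39 were higher (25.7%) and 5 lower (27.4%), with a median of 0.20. Mrpl34 was at 41.8 ± 6.79 CPM in Ctrl, 19.6 ± 11.6 in Doxo and 37.8 ± 7.74 in Doxo-NMN hearts. The exceptions included Mrpl33, with log2 fold changes of 0.80 and -0.50. Coding genes with annotated transcripts under 1000 bases that are not members, the size class of most members, gave 756 higher (33.9%, all genes 34.8%) and 727 lower (32.6%, all genes 33.3%) of 2229, with a median of -0.01.

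Rows of ribosomal protein pseudogenes were counted apart from the members. Of 298 such rows, 120 were tested, and 88 were higher (all genes 34.8%) and 0 lower (33.3%) in acute Doxo vs. Ctrl, with a median of 0.49. In the chronic study 2 of 2135 short coding genes outside the family were higher in Doxo vs. Ctrl (all genes 0.0535%) and 1 in Doxo-NMN vs. Ctrl (0.0401%). No gene of the other lists given above passed the test.

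**Figure D5:**
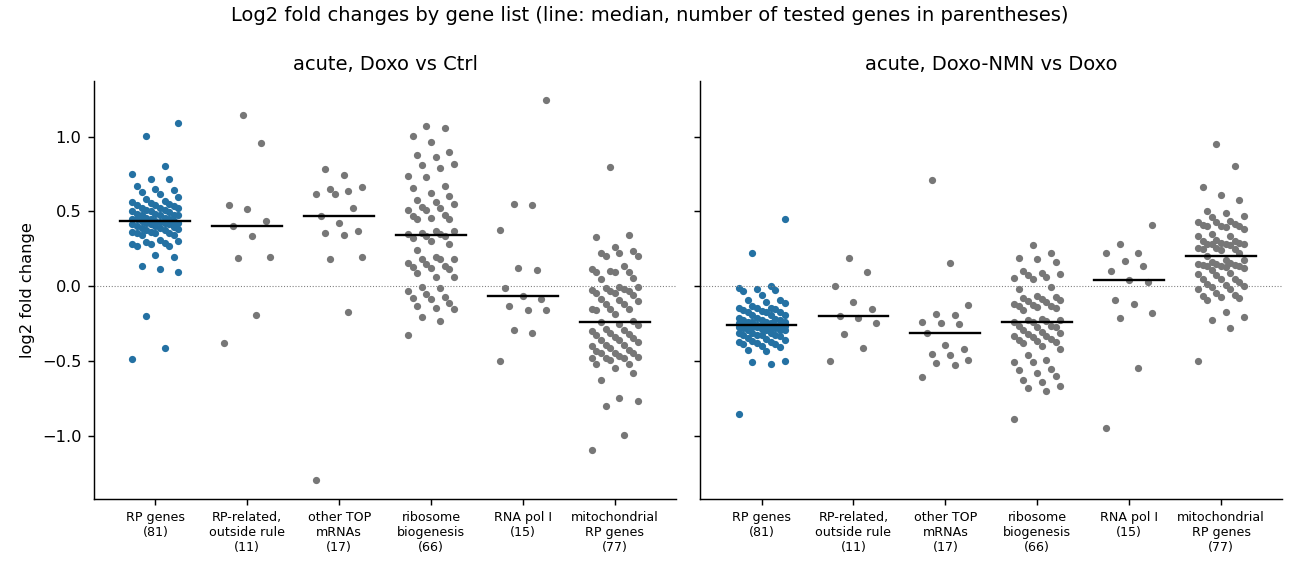
Log2 fold change of every tested member and of every tested gene of 5 other lists in acute Doxo vs. Ctrl and Doxo-NMN vs. Doxo, 1 point per gene with a line at the median. In Doxo vs. Ctrl the medians of the members, other TOP mRNAs and assembly factors are 0.43, 0.47 and 0.34 and that of mitochondrial ribosomal proteins is -0.24, and in Doxo-NMN vs. Doxo each of these 4 medians has the opposite sign.

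Summed levels of some cell type markers differed between the acute groups. The summed level of cardiomyocyte markers was 67031 CPM at the median in Ctrl, 54177 in Doxo and 72269 in Doxo-NMN hearts, with ranges of 59876 to 75068, 30440 to 75502 and 38081 to 83092. Endothelial markers were at medians of 606, 605 and 491 CPM and fibroblast markers at 902, 819 and 617 CPM in the same order. Single fibroblast markers were split, and in Doxo-NMN vs. Doxo their sum moved against most of them. Of 5, 3 were lower (all genes 33.3%) and 1 higher (34.8%) in Doxo vs. Ctrl, with a median log2 fold change of -1.38. In Doxo-NMN vs. Doxo 3 were higher (25.7%) and 2 lower (27.4%), with a median of 0.86. Leukocyte markers were at 154, 115 and 131 CPM, but of the 7 tested 3 were higher (all genes 34.8%) and 4 lower (33.3%) in Doxo vs. Ctrl. Erythroid markers were at 870, 1.74 and 1.16 CPM, the latter with Slc4a1 at 0 in the median heart of both treated groups. Markers of dividing cells were at 6.83, 2.07 and 1.64 CPM. Their part in the values of the members was not tested.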

How the data were processed

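Heart RNA was measured by poly(A) RNA sequencing in 57 mice. The authors mapped single-end reads to mm10 with STAR (2.7.3a in the submitters' processing notes) and counted them per gene with featureCounts 2.0.0, and the deposited values are these raw counts. The annotation, strand and multi-mapping settings are not given in the sources used here. Total counts were 32409622 to 52102850 (acute) and 17769886 to 23862287 (chronic) per heart, and a floor of 3 counts is at most 0.0926 and 0.169 CPM.

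Groups and replicate numbers were taken from the labels. In R 4.3.3, edgeR 4.0.16 removed low genes (filterByExpr), scaled with TMM and fitted the 3 groups of a study together with the quasi-likelihood test. Calls were made at a Benjamini-Hochberg adjusted p under 0.05 over all genes. CPM are TMM-scaled. Paralog ratios are log2 of counts + 0.5, compared by two-sided permutation tests, exact in the chronic study and with 100000 resamples in the acute study, adjusted over 33 tests. The labels do not say that same-numbered mice were paired, and the tests set group differences against the spread between these hearts. No pair of libraries agreed within sampling noise. Positions come from the GENCODE annotation of GRCm38 and start sequences from RefSeq (GRCm38.p6).

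The members and lists were chosen with earlier results of these data known. Genes were named by a fixed rule: paralog pairs, members with a special role, the 3 called members with the largest rise and fall and the member nearest the median per acute comparison, the 3 highest and lowest members, members called in the chronic or between-study tests, list genes of lists up to 12 genes and from longer lists the 2 with the largest called rise and fall. Members outside the rule that are named to account for a count, such as the 5 not called and the 5 that did not overlap in the chronic study, were chosen after their values were seen. Values of some genes the rule names are not reported here. The tests were checked on simulated counts. The alternatives were RLE, upper-quartile and no scaling factors, TMM without mitochondrial and member genes, no filter, DESeq2 1.42.0, voom with weighted samples (limma 3.58.1), 2-group fits, a replicate block, a 1.5-fold limit, halved counts, hearts of low or high Myl4, 5 added to counts, and each heart left out.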

Additional observations from a re-analysis of the deposited data

Results flagged for a closer look

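In the chronic study 1 Doxo heart, replicate 2, lay farther from the other 5 than Dixon's test allows in 2 of the 21 groups and values checked, where chance flags about 1 in 20. Both flagged values rest on the Rpl3 counts of this heart, so they are not independent. Its Rpl3 level was 343 CPM and its Rpl3l share of the pair was 38.6%, while the other 5 Doxo hearts had Rpl3 at 168 to 195 CPM and shares of 60.5% to 68.2%. The same heart had the highest family mean of its group (0.42 on the log2 scale), the lowest share of counts from mitochondrial DNA of the chronic hearts (15.7%), and the lowest ratio of Rps27l to Rps27. No cause was tested.

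The Doxo effect differed between the studies past the adjusted edgeR test for 9 of 81 members, all larger in the acute study, a share near the 11% of all genes. Among them the difference in log2 fold change, acute minus chronic, was 0.92 for the pseudogene Rpl6l (adjusted p = 0.0192), 0.56 for Rpl12 (0.0259), 0.49 for Rps19 (0.0255), 0.47 for Rps27 (0.0467), 0.45 for Rpl27 (0.0319), and 0.40 for both Rpl11 (0.0383) and Rpl41 (0.044). It was 0.38 for Rps27l (0.0452). Rpl6l was at 4.94 to 6.45 CPM in the Ctrl hearts of the acute study but only at 0.436 to 0.679 CPM in those of the chronic study. The count of these members was 38 without acute Doxo replicate 6 and also without chronic Doxo replicate 2, and 1 without chronic Ctrl replicate 1. For these fits the share of all genes called is not given. Study, site, age, schedule and time cannot be told apart.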

How the results depend on the processing

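The count of members higher in acute Doxo vs. Ctrl was 68 to 74 over the scalings, filters, tools and Myl4 sets, and 74 to 77 with single hearts left out; the median was 0.33 with library totals only, 0.37 with upper-quartile factors, 0.50 with low Myl4 and 0.31 with high Myl4. In place of 2 lower members, 1 was found in the 2-group fit and with low Myl4, and 1 to 2 with single hearts left out. At 1.5-fold the counts were 12 higher and 0 lower. In Doxo-NMN vs. Doxo the median was -0.16 with library totals, 2 members were higher with voom, and at 1.5-fold 0 were higher and 1 lower. In Doxo-NMN vs. Ctrl 60 members were higher in the 2-group fit, 5 with low Myl4, 5 with high Myl4 (median 0.088) and 0 at 1.5-fold, and 1 was lower with voom. With single hearts left out 0 to 1 were lower. The cause of these differences was not tested. The share of all genes called under each alternative setting of this section is not given, so the counts cannot be set beside a background.

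In the lists, with library totals Doxo-NMN vs. Doxo gave 2 lower relatives of the members, 2 lower p53 targets, 60 higher mitochondrial ribosomal protein genes and 30 lower pseudogene rows, and voom gave 2 lower p53 targets. Low Myl4 gave 3 higher RNA polymerase I genes in Doxo vs. Ctrl and, in Doxo-NMN vs. Doxo, 3 higher RNA polymerase I genes, 2 lower relatives and 29 lower pseudogene rows. High Myl4 gave 37 higher pseudogene rows in Doxo vs. Ctrl and, in Doxo-NMN vs. Doxo, 19 lower, with 1 higher RNA polymerase I gene and 2 lower p53 targets. With single hearts left out the lower p53 targets were 2 to 4, the 2 without acute Doxo replicate 5.

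Members with a larger acute than chronic effect were 15 with RLE, 21 with DESeq2 and 1 to 38 with single hearts left out, of which 17 fits moved the count by over 1.5 times, all 6 chronic Doxo hearts among them. Without the share of all genes called in these fits, the counts are not read as a result about the members. The replicate block left the count at 74 in acute Doxo vs. Ctrl, 63 in Doxo-NMN vs. Doxo and 0 in every chronic comparison, and gave 40 in Doxo-NMN vs. Ctrl. Same-numbered hearts deviated together, past a limit of 0.1, in 18 of 39 acute and 5 of 16 chronic pairs. The values lay on both sides of 0, from -0.68 to 0.65 (median 0.07) in acute and from -0.30 to 0.46 (median 0.03) in chronic pairs. The labels do not say whether these mice were paired, and such values cannot exclude it.

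With single hearts left out, the ratio of Rpl3l to Rpl3 differed by -0.63 to -0.42 in acute Doxo-NMN vs. Ctrl, -0.75 to -0.40 in chronic Doxo vs. Ctrl (-0.40 without Doxo replicate 2) and 0.19 to 0.54 in chronic Doxo-NMN vs. Doxo. For Rps27l to Rps27 it was -0.39 to -0.20 in chronic Doxo vs. Ctrl (-0.20 without Doxo replicate 2) and -0.31 to -0.21 in chronic Doxo-NMN vs. Ctrl. For Rpl22l1 to Rpl22 it was -0.28 to -0.18 in acute Doxo-NMN vs. Doxo, and for Rpl7l1 to Rpl7 -0.39 to -0.18 in chronic Doxo vs. Ctrl. For Rpl36al to Rpl36a it was 0.45 to 0.72 in acute Doxo vs. Ctrl and 0.43 to 0.70 in Doxo-NMN vs. Ctrl, and for Rps4l to Rps4x -0.22 to -0.14 in acute Doxo vs. Ctrl and 0.20 to 0.29 in Doxo-NMN vs. Doxo. In each of these at least 1 omission moved the unadjusted p across 0.05, and no sign changed.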
